A study of Mus musculus with 48 samples.

Results

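The genes described here are those for the enzymes that make prostaglandins from arachidonic acid and for the receptors of prostaglandin E2 (PGE2). They are the 9 genes Ptgs1, Ptgs2, Ptges, Ptgds, Hpgds, Ptger1, Ptger2, Ptger3 and Ptger4, followed in all 48 libraries. They were chosen by name out of the 55357 genes of the count table, with earlier results of these data known, and are no independent set. All 9 passed the filter on low counts, which left 21390 genes for testing. The filter asks for its level in any 4 libraries, and each of the 9 also passed it on the 24 saline libraries alone, Ptger2 with 7 of them at that level.

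RNA was sequenced from the dorsal dentate gyrus of 24 wild-type C57BL/6J mice that had received a unilateral injection of kainate, a glutamate receptor agonist that evokes status epilepticus, or of saline into the hippocampus. The injected side is named the epileptogenic zone (EZ) and the opposite side the peri-ictal zone (PIZ). Tissue was taken 3, 7 or 14 days later from 4 mice per treatment and day, 2 male and 2 female, aged 6 to 8 weeks by the series' design text and slightly older by the study's methods. Every mouse gave 1 EZ and 1 PIZ library, so 12 groups of 4 libraries were available and the PIZ is no tissue of an uninjected animal. Saline mice underwent the same surgery, and all mice were fed acetaminophen, itself a drug that acts on prostaglandin synthesis, for the day after surgery. Kainate mice each had behavioral seizures within the observation period, and no electrographic recording was made.

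Prostaglandin synthesis starts when phospholipases free arachidonic acid from membranes. A cyclooxygenase then makes prostaglandin H2, the common precursor: Ptgs1 encodes COX-1, a largely constitutive form found in brain in microglia, and Ptgs2 encodes COX-2, an immediate early gene product of excitatory neurons that is induced by seizures and by inflammation. Terminal synthases give each prostanoid its identity. Ptges encodes the inducible microsomal PGE2 synthase, while Ptgds and Hpgds encode the lipocalin-type and hematopoietic prostaglandin D2 (PGD2) synthases, known in brain from meninges, choroid plexus and oligodendrocytes and from microglia, respectively. Ptger1 to Ptger4 encode the PGE2 receptors EP1 to EP4, of which EP2 and EP4 raise cyclic AMP, EP3 mostly lowers it and EP1 raises calcium.

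The promoters of both cyclooxygenase genes and of Hpgds and Ptger4 are shown because these are the genes whose levels the account turns on. Each stretch runs from 250 bases before to 30 bases after the RefSeq transcription start, 5′ to 3′ on the gene's strand. Sequences are from the RefSeq promoter table (GRCm38.p6), in which 8 of the 9 genes had an entry and Ptger1 had none, and positions are those of the exact match in GRCm39. Capitals mark matches to the 6 motifs searched on both strands: the cyclic AMP response element core TGACG, the E-box CACGTG, the CCAAT box, the kB site, the C/EBP site TTGCNNAA and the AP-1 site TGAGTCA.
Ptgs2, chr1:149975532-149975811, plus strand: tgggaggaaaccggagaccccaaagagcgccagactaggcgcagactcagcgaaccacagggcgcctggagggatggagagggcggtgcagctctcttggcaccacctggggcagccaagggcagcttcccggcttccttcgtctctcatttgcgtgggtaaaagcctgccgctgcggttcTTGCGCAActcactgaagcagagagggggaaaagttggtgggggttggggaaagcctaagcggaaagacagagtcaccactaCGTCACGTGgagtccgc
Ptgs1, chr2:36120188-36120467, plus strand: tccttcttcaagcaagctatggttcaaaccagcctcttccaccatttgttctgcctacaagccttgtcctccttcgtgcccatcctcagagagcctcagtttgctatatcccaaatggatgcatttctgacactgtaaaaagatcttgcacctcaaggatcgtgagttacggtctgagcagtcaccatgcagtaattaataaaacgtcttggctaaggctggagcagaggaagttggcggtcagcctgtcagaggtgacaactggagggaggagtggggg
Hpgds, chr6:65121685-65121964, minus strand: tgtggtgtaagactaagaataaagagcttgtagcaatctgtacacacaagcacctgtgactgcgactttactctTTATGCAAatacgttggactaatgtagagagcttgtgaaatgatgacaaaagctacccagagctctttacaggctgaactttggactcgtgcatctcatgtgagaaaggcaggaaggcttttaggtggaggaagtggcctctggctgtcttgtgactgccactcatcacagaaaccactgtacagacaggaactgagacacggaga
Ptger4, chr15:5273639-5273918, minus strand: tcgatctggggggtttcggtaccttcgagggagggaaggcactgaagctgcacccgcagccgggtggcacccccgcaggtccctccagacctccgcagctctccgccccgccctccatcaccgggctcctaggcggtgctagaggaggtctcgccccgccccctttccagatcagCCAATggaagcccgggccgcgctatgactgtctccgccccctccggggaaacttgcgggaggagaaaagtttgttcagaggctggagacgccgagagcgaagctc

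In the Ptgs2 promoter, a cyclic AMP element core on the minus strand lay at bases 14 to 18 after the start given in the RefSeq table. It shared its last bases with an E-box at 17 to 22, and a C/EBP match lay at -69 to -62. None of the 6 motifs occurred in the Ptgs1, Ptges or Ptger3 windows. The Hpgds window held a C/EBP match on the minus strand at -176 to -169 and the Ptger4 window a CCAAT box at -75 to -71, whereas Ptger2 had a CCAAT box at -160 to -156 and Ptgds a kB match at -22 to -13 and an AP-1 match on the minus strand at -35 to -29. Such matches are common: of 27025 RefSeq promoters of the same length, 20.1% held the cyclic AMP element core, 6.89% the E-box, 36.6% the CCAAT box, 7.68% the kB site, 10.3% the C/EBP site and 4.89% the AP-1 site. GC content was 61.4% for Ptgs2 and 66.8% for Ptger4 but 49.6% for Ptgs1 and 45.7% for Hpgds, against a median of 52.5% over all promoters.

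In the whole gene annotation (GRCm39), Ptgs2 spans chr1:149975194-149983978 on the plus strand. This span begins before the Ptgs2 window shown, so the motif positions hold for the RefSeq start alone. Ptgs2 is overlapped by the antisense transcript Ptgs2os, which had 5 to 61 counts per library. Ptgs1 lies at chr2:36120438-36142287, Hpgds at chr6:65094001-65121983 and Ptger4 at chr15:5236142-5273673. Ptger4, with 11 to 483 counts, shares 229 exon bases with Ttc33 on the opposite strand, which had 502 to 1012 counts. Ptger1 lies at chr8:84393264-84399384 and had 7 to 67 counts per library. Where genes share bases with others on the opposite strand, only the strand-aware counting keeps them apart. The part of reads from the opposite strand in the lowest counts was not tested.

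Libraries held 17762656 to 25712975 counted reads (median 22108562.5). Levels are given as CPM scaled by TMM, edgeR's correction for library composition, with the number of counts where they are few. Differential expression was tested for all genes at once, and a gene was called a differentially expressed gene (DEG) when edgeR's quasi-likelihood test gave a Benjamini-Hochberg adjusted p under 0.01 and the fold change exceeded 1.5. Because the tissue is a mixture of cells, fewer cells of a type and less RNA per cell cannot be told apart in any of these values.

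Compared between genes per length of the canonical transcript, as FPKM, the CPM divided by the transcript length in kilobases, Ptgds stood far above the others in saline libraries, with a median of 75.1 over the 24 libraries of both sides. It was followed by Ptgs2 at 7.13, Ptgs1 at 4.11 and Hpgds at 2.47, and each of these 4 genes exceeded the next one in all 24 saline libraries. Ptges, with a median of 0.700, came next and was in turn above Ptger3 in 23 of 24 libraries. The receptors were all low: the median was 0.277 for Ptger3, 0.270 for Ptger4, 0.173 for Ptger1 and 0.0956 for Ptger2. Ptger3 and Ptger4 could not be ordered, as Ptger3 was above Ptger4 in 14 of 24 libraries. Ptger4 exceeded Ptger1 in 20 and Ptger1 exceeded Ptger2 in 21 of the 24.

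**Figure D1:**
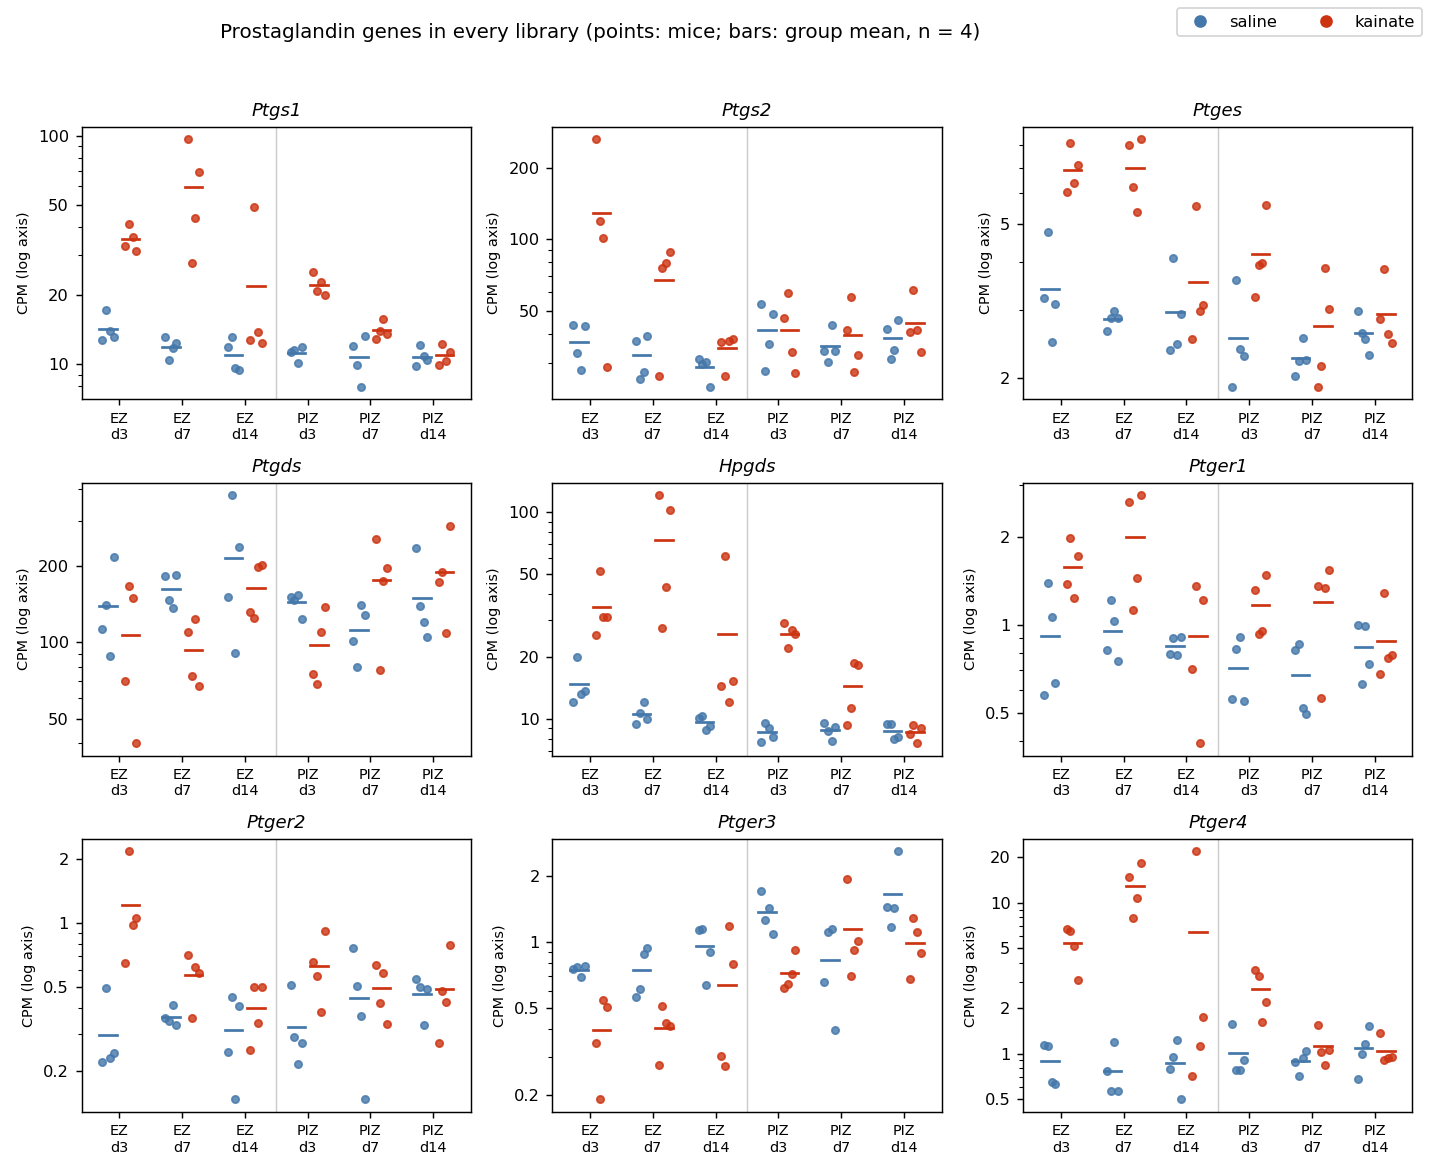
Level of each of the 9 prostaglandin genes in every library, in CPM on a log axis, by side (EZ, PIZ) and day (d3, d7, d14). Points are mice and bars are group means of 4 mice. Kainate points of Ptgs1, Ptges, Hpgds and Ptger4 lie above all saline points in the EZ on days 3 and 7, while 1 kainate mouse on each of these days keeps a Ptgs2 level (28.96 and 26.4 CPM) within the saline range.

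On the injected side, 6 of the 9 genes were DEG on day 3 and 5 on day 7, all of them higher in kainate mice, and no member was called lower at any time on either side. On day 3 these were Ptgs1, Ptgs2, Ptges, Hpgds, Ptger2 and Ptger4, where 24.7% of all genes tested were called. On day 7 they were Ptgs1, Ptges, Hpgds, Ptger1 and Ptger4, where 32.5% of all genes were called. Only Ptger4 was called on day 14, when 2.36% of genes were. In the PIZ, Hpgds alone was called on day 3, against 8.69% of all genes. No member was called there by edgeR on day 7 or day 14, when 0.201% and 0.014% of genes were, and 1 member had an unadjusted p under 0.05 on each of these days (Ptger1 and Ptger3, respectively), as did 14.5% and 5.97% of all genes. At that threshold stood 8, 8 and 3 members in the EZ on days 3, 7 and 14 and 7 in the PIZ on day 3, beside 53.9%, 61.4%, 18% and 35.7% of all genes. As a description of the list, the 9 genes had median log2 fold changes in the EZ of 1.24, 1.06 and 0.27 on days 3, 7 and 14, and of 0.72 in the PIZ on day 3, beside 0.03, 0.01, 0.00 and 0.02 for all genes tested. Without Ptger2, the gene with the fewest counts, the medians of the other 8 were 1.13, 1.18, 0.26 and 0.72.

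**Figure D2:**
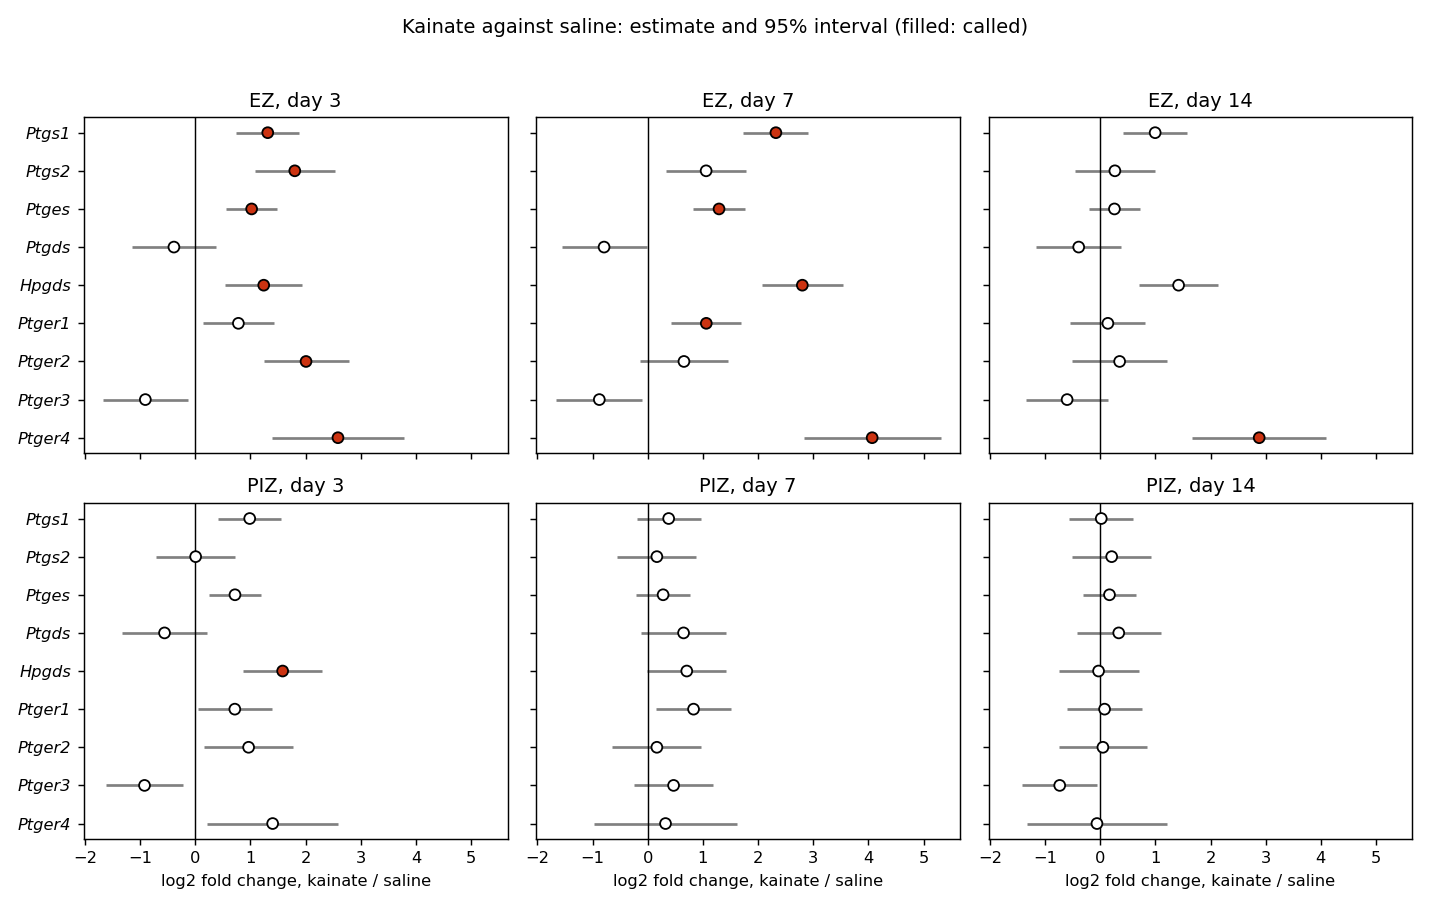
Log2 fold change of kainate over saline for each gene, with a 95% interval built from edgeR's fold change and F statistic, by side and day. Filled points passed the call of adjusted p under 0.01 and fold change over 1.5: 6 genes in the EZ on day 3, 5 on day 7, Ptger4 on day 14 and Hpgds in the PIZ on day 3.

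The cyclooxygenases did not move alike. Ptgs2 had its highest levels on day 3 and in only some mice. In the EZ on day 3, kainate mice 30, 38, 42 and 44 had 265, 119, 101 and 28.96 CPM of Ptgs2, and saline mice had 43.3, 33.05, 28.04 and 43.0 CPM (mice 18, 29, 37 and 41). Thus 3 of 4 kainate mice were above every saline mouse, and mouse 44 was within the saline range. The mean was 129 ± 98.9 CPM against 36.8 ± 7.55 CPM (SD, n = 4 each), and the fitted change was 3.49-fold, a log2 fold change of 1.80 ± 0.36 (SE), with an edgeR adjusted p of 9.4e-05. The call was lost when only the 2 groups compared entered the fit (log2 fold change 1.77, adjusted p = 0.020), and the log2 fold change lay between 1.17 (without mouse 30) and 2.14 with any 1 mouse left out.

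On day 7, EZ levels of Ptgs2 were 75.7, 79.2 and 88.6 CPM in kainate mice 23, 26 and 35 and 26.4 CPM in kainate mouse 21, against 37.3, 25.7, 27.5 and 39.2 CPM in saline mice. Again 3 kainate mice were above and 1 was inside the saline range. The log2 fold change of 1.06 ± 0.36 just missed the call (edgeR adjusted p = 0.0107), and it was called without kainate mouse 21 (1.33, adjusted p = 0.0022), with DESeq2 (1.05, adjusted p = 0.0078), with scaling by library size only (1.14, adjusted p = 0.0054) and with genes of at least 10 counts in every library (1.08, adjusted p = 0.0085). By day 14 the kainate mice had 26.4 to 37.8 CPM and the saline mice 23.8 to 31.4 CPM (log2 fold change 0.27 ± 0.36, adjusted p = 0.73). In the PIZ, Ptgs2 gave no call: kainate mice ranged from 27.3 to 59.1 CPM on day 3 and saline mice from 27.9 to 53.5 CPM, with a log2 fold change of 0.01 (95% interval -0.71 to 0.72).

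Ptgs1 rose in every kainate mouse of the EZ on days 3 and 7. On day 3 it stood at 33.02, 41.2, 36.2 and 31.4 CPM in kainate mice 30, 38, 42 and 44 and at 12.8, 17.2, 13.9 and 13.2 CPM in saline mice, without overlap. That was a 2.48-fold difference (log2 fold change 1.31 ± 0.28, edgeR adjusted p = 0.00023). On day 7, kainate mice 21, 23, 26 and 35 had 96.9, 27.8, 43.8 and 69.6 CPM, all above the saline range of 10.4 to 13.2 CPM. The fold change was 5.0 (log2 2.32 ± 0.29, adjusted p = 5.2e-08).

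On day 14, 3 kainate mice had 12.3 to 13.8 CPM beside saline mice with 9.41 to 13.1 CPM, and only kainate mouse 27, with 48.6 CPM, stood apart. The log2 fold change of 0.996 was not called (adjusted p = 0.030), and it was 0.24 without mouse 27. It was called without kainate mouse 36 (1.17), 14 (1.18) or 40 (1.19), which leave mouse 27 among the 3 that remain. In the PIZ on day 3, the kainate mice had 20.02 to 25.3 CPM and the saline mice 10.1 to 11.9 CPM, a 1.98-fold difference without overlap. It missed the call narrowly in edgeR (adjusted p = 0.0101) and passed in DESeq2 (adjusted p = 0.0050), limma-voom with quality weights (adjusted p = 2.0e-06) and 3 other edgeR settings, but not in limma-voom with mouse as a random block nor with any mouse left out. PIZ levels on days 7 and 14 overlapped between treatments.

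Within the same animals, the ratio of Ptgs2 to Ptgs1 per transcript length showed how far the 2 genes came apart. EZ saline libraries had median ratios of 1.59, 1.599 and 1.56 on days 3, 7 and 14, with all 12 values between 1.16 and 2.04. EZ kainate libraries had medians of 1.72, 0.930 and 1.69 on these days, and the extremes were single mice. Among kainate mice the ratio reached 4.85 in mouse 30 on day 3 and was 0.558 in mouse 44 of the same day, 0.165 in mouse 21 on day 7 and 0.328 in mouse 27 on day 14. Mice 21 and 27, which had the highest EZ Ptgs1 level of their day, had the lowest kainate Ptgs2 level of that day. Day 3 did not show this: mouse 38 had the highest EZ Ptgs1 level (41.2 CPM) beside 119 CPM of Ptgs2. Mouse 44 had the lowest EZ kainate level of both genes on that day. In the PIZ on day 3, the median ratio was 0.9996 in kainate and 2.30 in saline mice, with overlapping ranges (0.823 to 1.72 and 1.46 to 2.85). PIZ medians on days 7 and 14 were 1.70 and 2.46 in kainate and 1.77 and 2.24 in saline mice.

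**Figure D3:**
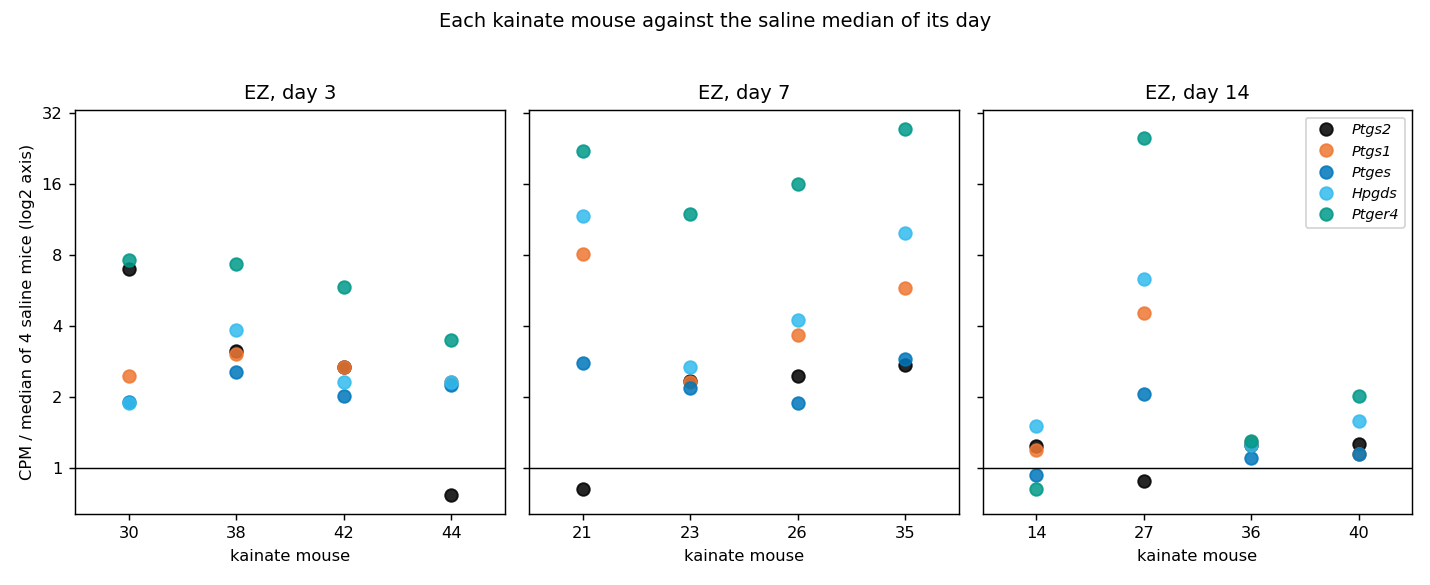
EZ level of 5 prostaglandin genes in each kainate mouse divided by the median of the 4 saline mice of the same day (log2 axis, line at 1). In mice 44, 21 and 27 Ptgs2 lies below the saline median while Ptgs1, Ptges, Hpgds and Ptger4 of the same library lie above it.

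Among the terminal synthases, Ptges rose about as much on day 3 as on day 7. EZ levels on day 3 were 6.04, 8.11, 6.38 and 7.11 CPM in kainate mice 30, 38, 42 and 44 and 3.22, 4.77, 2.49 and 3.12 CPM in saline mice, a 2.03-fold difference (log2 fold change 1.02 ± 0.23, edgeR adjusted p = 0.00031). On day 7 the kainate mice had 5.38 to 8.30 CPM and the saline mice 2.65 to 2.99 CPM, a 2.45-fold difference (log2 fold change 1.29 ± 0.23, adjusted p = 1.1e-05). The groups did not overlap on either day. On day 14, kainate mouse 27 had 5.57 CPM and the other 3 had 2.52 to 3.09 CPM, inside the saline range of 2.37 to 4.10 CPM. In the PIZ, the day 3 log2 fold change of 0.72 (1.65-fold) was not called (adjusted p = 0.021), though it was without saline mouse 29 (0.93, adjusted p = 0.0049) and in limma-voom with quality weights (0.70, adjusted p = 0.0055), but not in limma-voom with mouse as a random block.

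Hpgds, the hematopoietic PGD2 synthase, was higher in kainate mice on both sides. On day 3 in the EZ, kainate mice 30, 38, 42 and 44 had 25.4, 51.8, 31.01 and 31.1 CPM and saline mice 18, 29, 37 and 41 had 12.1, 19.9, 13.2 and 13.7 CPM. All kainate values were above all saline values, at a 2.36-fold difference (log2 fold change 1.24 ± 0.35, edgeR adjusted p = 0.0032). The call was lost without kainate mouse 38 (log2 fold change 0.99) and without saline mice 37 (1.19), 18 (1.16) or 41 (1.21), with adjusted p-values of 0.0118 to 0.0288.

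On day 7 the Hpgds levels spread widely among kainate mice, at 121, 27.5, 43.6 and 103 CPM in mice 21, 23, 26 and 35, and all 4 exceeded the saline range of 9.49 to 12.1 CPM. The difference was 6.98-fold (log2 fold change 2.80 ± 0.36, adjusted p = 7.6e-08) and was called with every alternative and with any mouse left out. By day 14, mouse 27 still had 61.3 CPM, and mice 14, 36 and 40 had 14.5, 12.1 and 15.3 CPM, against 8.86 to 10.4 CPM in saline mice. Although no value overlapped, the log2 fold change of 1.42 ± 0.35 fell just outside the call (adjusted p = 0.0101). DESeq2 called it (adjusted p = 0.0015), as did edgeR with RLE size factors (adjusted p = 0.0091), edgeR without the filter on low counts (adjusted p = 0.0081) and edgeR without kainate mouse 36, 14 or 40 (log2 fold changes of 1.66, 1.62 and 1.61). Without mouse 27 the log2 fold change was 0.54 and not called.

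In the PIZ on day 3, Hpgds was the only called member: 29, 22.0, 26.8 and 25.7 CPM in kainate mice 30, 38, 42 and 44 and 7.75 to 9.52 CPM in saline mice, a 3.00-fold difference (log2 fold change 1.58 ± 0.35, edgeR adjusted p = 0.0012). The call was lost with glmTreat, a test against a fold change of 1.5 (adjusted p = 0.020). On day 7 the PIZ of kainate mice 26 and 35 had 18.7 and 18.1 CPM, and mice 21 and 23 had 9.37 and 11.3 CPM, next to a saline range of 7.79 to 9.59 CPM (log2 fold change 0.71, adjusted p = 0.35, called by limma-voom with quality weights at 0.88, adjusted p = 0.0039). On day 14 both treatments were at 7.64 to 9.47 CPM.

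Ptgds, the lipocalin-type PGD2 synthase and the most abundant of the 9 genes, gave no call. On day 7 its EZ level was 67.3 to 123 CPM in kainate mice and 136 to 183 CPM in saline mice, without overlap, and the log2 fold change was -0.79 (95% interval -1.56 to -0.02, edgeR adjusted p = 0.072). Its EZ values overlapped on day 3 (39.99 to 166 CPM in kainate, 88.0 to 217 CPM in saline mice) and on day 14 (124 to 202 CPM and 90.7 to 380 CPM). PIZ fold changes were -0.56, 0.65 and 0.34 on the log2 scale on days 3, 7 and 14, with adjusted p-values of 0.30 or more.

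Of the PGE2 receptors, Ptger4 showed the widest change among the members. Ptger4 levels on day 3 in the EZ were 6.73, 6.50, 5.19 and 3.07 CPM (73 to 176 counts) in kainate mice 30, 38, 42 and 44 and 0.633 to 1.15 CPM (13 to 26 counts) in saline mice. The fitted difference was 6.00-fold (log2 fold change 2.59 ± 0.59, edgeR adjusted p = 0.00044). On day 7, mice 21, 23, 26 and 35 had 14.7, 7.90, 10.7 and 18.3 CPM and the saline mice 0.564 to 1.19 CPM, a 16.8-fold difference (log2 fold change 4.07 ± 0.61, adjusted p = 9.0e-07). Kainate and saline values were separate on both days, and both calls held under every alternative and with any mouse left out.

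The day 14 call of Ptger4 rested on mouse 27. Its EZ library had 21.9 CPM (483 counts), the highest level of the gene in any library, whereas kainate mice 14, 36 and 40 had 0.706, 1.12 and 1.75 CPM and saline mice 0.498 to 1.23 CPM. The log2 fold change was 2.88 ± 0.60 (adjusted p = 0.0025) with all mice and 0.49 without mouse 27 (adjusted p = 1). It also lost its call without saline mice 24 (2.84), 28 (2.93), 39 (2.69) or 31 (3.10), in limma-voom with quality weights (0.27), with mouse as a random block in limma-voom (1.57) and with only the compared groups (2.89, adjusted p = 0.56).

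In the PIZ, Ptger4 reached 3.60, 3.27, 1.62 and 2.20 CPM in the 4 kainate mice on day 3, all above the saline range of 0.778 to 1.58 CPM. The log2 fold change of 1.40 ± 0.59 was not called (edgeR adjusted p = 0.078), but limma-voom with quality weights (1.52, adjusted p = 0.00037) and a fit of these groups alone (1.40, adjusted p = 0.0078) called it. DESeq2 and limma-voom with mouse as a random block did not. On day 7 kainate and saline PIZ levels were 0.836 to 1.54 and 0.705 to 1.04 CPM, and on day 14 they overlapped fully.

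Ptger2 and Ptger1, the genes for EP2 and EP1, were near the detection limit. Ptger2 had 3 to 57 counts in any library, and its EZ level on day 3 was 0.650, 2.18, 0.979 and 1.05 CPM in kainate mice and 0.221, 0.495, 0.231 and 0.244 CPM in saline mice, without overlap (4.02-fold, log2 2.01 ± 0.38, adjusted p = 5.0e-05). On day 7 its EZ levels were 0.357 to 0.705 and 0.330 to 0.413 CPM (log2 fold change 0.66, adjusted p = 0.15), and in the PIZ on day 3 they were 0.382 to 0.919 and 0.217 to 0.511 CPM (0.97, edgeR adjusted p = 0.071). Ptger1 was called in the EZ on day 7, at 2.63, 1.12, 1.44 and 2.78 CPM in kainate mice 21, 23, 26 and 35 and 0.753 to 1.22 CPM in saline mice (2.09-fold, log2 1.06 ± 0.31, adjusted p = 0.0041), with overlapping groups. This call was lost without kainate mouse 21 (0.90) or 35 (0.87), without saline mouse 89 (0.96) or 20 (0.99), with only the compared groups (adjusted p = 0.031) and with glmTreat, which tests against a fold change of 1.5 (adjusted p = 0.081). It was not called in the EZ on day 3 (1.23 to 1.99 against 0.574 to 1.396 CPM, log2 fold change 0.78, edgeR adjusted p = 0.039), in the PIZ on day 3 (0.929 to 1.48 against 0.547 to 0.910 CPM, 0.72, adjusted p = 0.11) or in the PIZ on day 7 (0.561 to 1.54 against 0.495 to 0.857 CPM, 0.83, adjusted p = 0.23). Of these 3, the groups were separate in the PIZ on day 3 alone.

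Ptger3, the gene for the inhibitory EP3, had lower values in kainate than in saline mice in the EZ on days 3 and 7 and in the PIZ on day 3. EZ values on day 3 were 0.344, 0.191, 0.544 and 0.505 CPM (5 to 15 counts) in mice 30, 38, 42 and 44 and 0.692 to 0.779 CPM (15 to 17 counts) in saline mice. The day 7 values were 0.274 to 0.510 and 0.561 to 0.942 CPM, and in the PIZ on day 3 they were 0.614 to 0.919 and 1.09 to 1.72 CPM. Kainate and saline mice were separate in all 3 comparisons, with log2 fold changes of -0.91, -0.88 and -0.92. None was called: the edgeR adjusted p-values were 0.046, 0.049 and 0.047, which pass at 0.05 with no fold minimum. In the PIZ on day 7 the direction was the opposite (0.701 to 1.95 CPM in kainate, 0.396 to 1.14 CPM in saline mice, log2 fold change 0.47, edgeR adjusted p = 0.57), and the groups overlapped.

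Whether the 2 sides responded differently was tested as the EZ fold change minus the PIZ fold change of the same day. On day 7, 3 members differed, against 9.89% of all genes. The difference was 1.94 ± 0.40 on the log2 scale for Ptgs1 (edgeR adjusted p = 0.0021), 2.10 ± 0.50 for Hpgds (adjusted p = 0.0037) and 3.75 ± 0.88 for Ptger4 (adjusted p = 0.0036), in each case with the larger change in the EZ. The saline and kainate groups are those of the comparisons above, which therefore share libraries with these differences. Ptges differed by 1.01 (adjusted p = 0.021), and with mouse as a block its difference of 1.03 was called (adjusted p = 0.0099), as was its difference of 1.34 without kainate mouse 26. These calls were sensitive to single animals, and those of Ptgs1, Hpgds and Ptger4 were also lost with glmTreat. Ptgs1 lost its call without saline mouse 89 (1.84), kainate mouse 21 (1.57), kainate mouse 35 (1.85) or saline mouse 20 (1.94), with adjusted p-values of 0.0103 to 0.0268. Leaving out saline mouse 89, saline mouse 33, kainate mouse 21, kainate mouse 35 or saline mouse 20 ended the call of Hpgds (2.05, 2.10, 1.59, 2.03 and 2.00), which was also lost with only the compared groups (2.12, adjusted p = 0.0125), and of Ptger4 (3.54, 3.71, 3.88, 3.52 and 3.75). The negative differences of Ptgds (-1.44, adjusted p = 0.042) and Ptger3 (-1.35, adjusted p = 0.049) were not called.

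On day 3, no member differed between sides by edgeR's call, which 0.0655% of genes met. Ptgs2 alone had an unadjusted p under 0.05, as did 17.9% of all genes, with a difference of 1.80 ± 0.50 (adjusted p = 0.067). It was called without kainate mouse 44 (1.97, adjusted p = 0.0068) and by limma-voom with quality weights (1.48, adjusted p = 0.0017), and not by DESeq2. For Hpgds the difference was -0.34 (95% interval -1.33 to 0.65). On day 14, no gene of the table met the call (0%), and 3 members, Ptgs1, Hpgds and Ptger4, had an unadjusted p under 0.05, as did 7.3% of all genes. Their differences of 0.98, 1.45 and 2.94 were 0.28, 0.61 and 0.48 without kainate mouse 27.

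The change of the kainate effect with time was tested likewise. From day 3 to day 7 in the EZ, where 0.145% of genes were called, no member was called by edgeR, and 3 of 9 had an unadjusted p under 0.05, as did 12% of all genes. The changes were 1.01 for Ptgs1 and 1.56 for Hpgds, upward, and -1.35 for Ptger2, with adjusted p-values of 0.27, 0.13 and 0.30. Limma-voom with quality weights called Ptgs1 (1.11), Hpgds (1.82) and Ptger4 (1.55). Ptgs2 moved the other way, by -0.75 (95% interval -1.75 to 0.26).

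From day 7 to day 14 in the EZ, where 0.271% of genes were called, again no member was called by edgeR, and Ptgs1 (-1.33), Ptges (-1.03) and Hpgds (-1.38) had an unadjusted p under 0.05. That was 3 of 9 members beside 33.1% of all genes. Here a single animal decided the outcome: without kainate mouse 27, 4 members were called lower on day 14 than on day 7, namely Ptgs1 (-2.09), Ptges (-1.34), Hpgds (-2.27) and Ptger4 (-3.58), and without kainate mouse 23 Ptgs1 (-1.56) and Hpgds (-1.65) were. In the PIZ from day 3 to day 7 (0.0234% of genes called), no member was called and 2, Ptgds (1.21) and Ptger3 (1.39), had an unadjusted p under 0.05, as did 10.6% of all genes.

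Saline mice served to compare the injected with the opposite side without kainate. No member was called by edgeR on any day, where 0.0281%, 0% and 0% of genes were on days 3, 7 and 14. At an unadjusted p under 0.05 stood 2 members on day 3, none on day 7 and 1 on day 14, beside 6.17%, 1.52% and 2.42% of all genes. On day 3, Hpgds was at 12.1 to 19.9 CPM in the EZ and 7.75 to 9.52 CPM in the PIZ of saline mice, a log2 difference of 0.77 (adjusted p = 0.76) without overlap. Ptger3 was lower in the EZ than in the PIZ without overlap on days 3 and 14 (-0.88 and -0.79, not called). Ptgs1 on day 3 (12.8 to 17.2 against 10.1 to 11.9 CPM, 0.35) and Ptges on day 7 (2.65 to 2.99 against 2.03 to 2.54 CPM, 0.34) were higher in the EZ without overlap, and neither was called.

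Several of these genes varied together with the level of microglial transcripts and, less closely for Hpgds and Ptgs1, with those of other cell types. A list of 7 microglial genes (P2ry12, Tmem119, Cx3cr1, Csf1r, Sall1, Siglech and Aif1), led by Csf1r and Cx3cr1, had 4 members called higher in the EZ on day 3, 7 on day 7, 3 on day 14 and 7 in the PIZ on day 3, and none in the PIZ on days 7 and 14. Of all genes, 16.1%, 20.6%, 2.32% and 7.12% were called higher in the EZ on days 3, 7 and 14 and in the PIZ on day 3. P2ry12, a purinergic receptor gene, had a log2 fold change of -0.26 in the EZ on day 3 (not called) and 0.98 in the PIZ. The summed level of the 7 genes, P2ry12 included, had medians of 771, 1574 and 377 CPM in EZ kainate and 411, 307 and 282 CPM in EZ saline libraries on days 3, 7 and 14. In the PIZ the medians were 669, 401 and 253 CPM in kainate and 253, 259.9 and 243 CPM in saline mice. EZ libraries of mice 21 (2766 CPM), 35 (1953 CPM) and 27 (1402 CPM) had the highest sums of all.

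Hpgds followed this sum closely. Per 1000 CPM of microglial markers there were 29.5 to 57.8 CPM of Hpgds (median 38.03) in the 24 kainate libraries and 31.9 to 39.4 CPM (median 35.02) in the 24 saline libraries, so that the highest kainate ratio was 1.96 times the lowest while Hpgds itself ranged from 7.64 to 121 CPM. Within groups the Hpgds ratio was higher in kainate mice without overlap in the EZ on day 3 (38.7 to 57.8 against 32.5 to 35.7) and day 14 (37.4 to 43.7 against 31.9 to 36.6). For Ptgs1 the ratio was 30.04 to 52.7 CPM per 1000 in kainate and 30.9 to 53.5 CPM in saline libraries, but the sides moved oppositely on day 3. It was 39.03 to 52.7 in kainate and 30.9 to 36.8 in saline mice in the EZ, and 30.04 to 37.1 against 39.3 to 53.5 in the PIZ, without overlap in either. For Ptger4 the EZ median ratio was 7.15 in kainate and 1.82 in saline mice on day 3 and 9.07 and 2.24 on day 7, and mouse 27 had 15.6. For Ptges the EZ median ratio was 8.95 in kainate and 7.99 in saline mice on day 3 and 4.38 and 9.29 on day 7. For Ptgs2 the ratio ran from 9.55 to 423 in kainate libraries. The part of microglial number in any member's change was not tested.

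Across the 48 libraries, Pearson's r of log2 levels with the microglial sum was 0.989 for Hpgds, 0.965 for Ptgs1, 0.865 for Ptger4, 0.869 for Ptges, 0.287 for Ptgs2 and -0.704 for Ptger3. After subtraction of the 12 group means it was 0.959, 0.901, 0.597, 0.668, -0.417 and -0.463, respectively. Other marker sums gave high values too: with astrocyte markers r was 0.909 for Hpgds, 0.888 for Ptgs1 and 0.859 for Ptges, and within groups endothelial markers gave 0.848 for Hpgds, 0.741 for Ptgs1 and 0.686 for Ptges. These values are descriptive, since libraries share groups, mice and the response to kainate. Hpgds is not itself on the marker list.

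**Figure D4:**
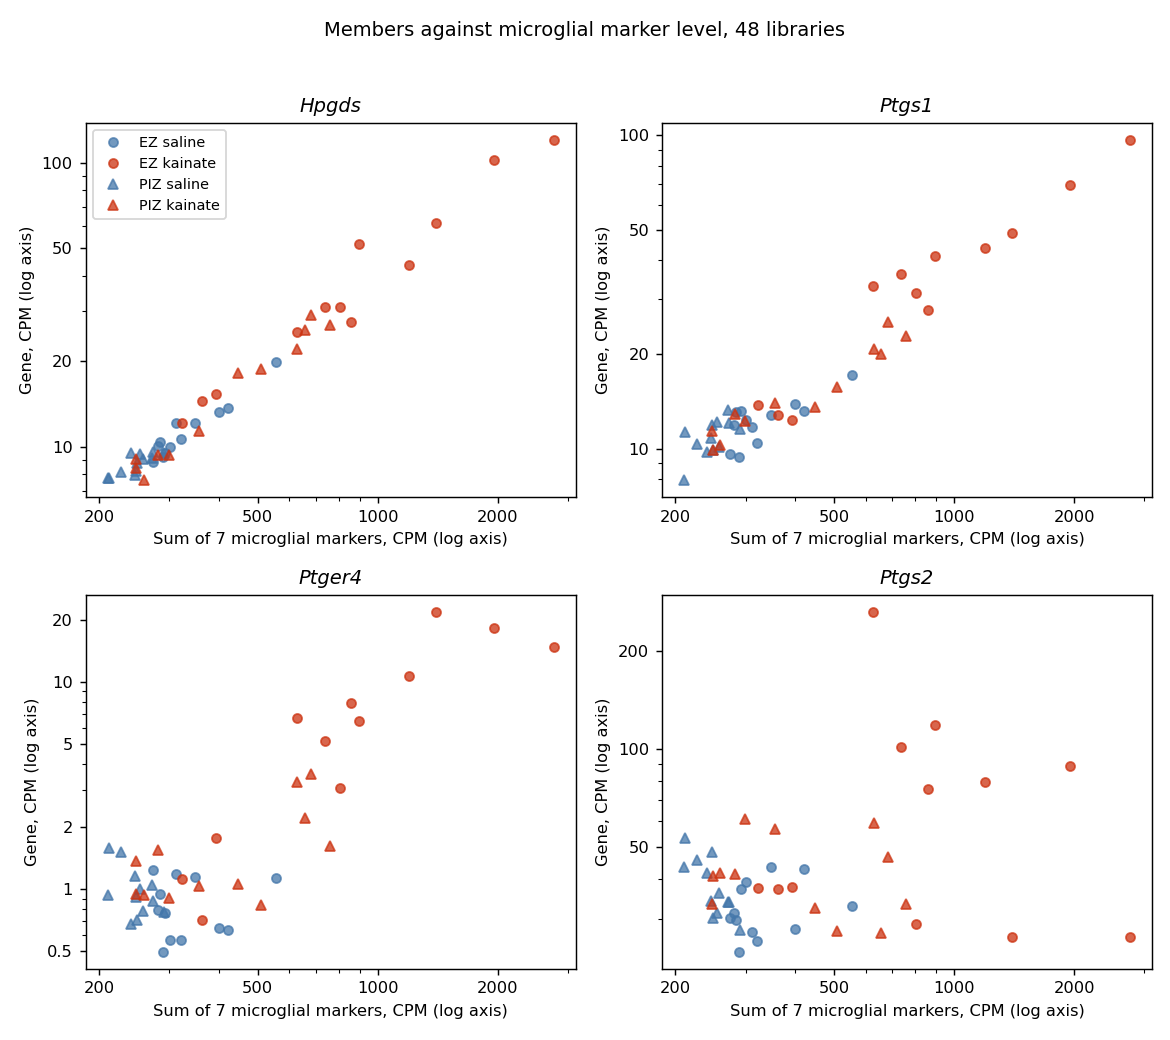
Level of Hpgds, Ptgs1, Ptger4 and Ptgs2 against the summed level of 7 microglial markers in each of the 48 libraries, both in CPM on log axes. Circles are EZ and triangles PIZ libraries, red kainate and blue saline. Hpgds and Ptgs1 rise with the sum over both treatments, Ptger4 bends upward in EZ kainate libraries, and Ptgs2 scatters, with 26.4 CPM in the library of the highest sum and 88.6 CPM in the next.

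Marker lists of other cell types are read against the same shares of all genes and, for lower calls, against 8.61% and 11.9% of all genes in the EZ on days 3 and 7. In the EZ on days 3 and 7, 5 and 6 of 8 genes of meninges and fibroblasts (led by Igf2 and Dcn), 4 and 4 of 8 of endothelium (Flt1, Slco1c1) and 5 and 5 of 8 of pericytes and smooth muscle (Rgs5, Vtn) were higher, while 3 and 3 of 8 dentate granule cell (Prox1, Dock10), 5 and 4 of 8 interneuron (Gad1, Gad2), 5 and 5 of 6 CA3 (Dkk3, Bok) and 2 and 4 of 6 CA1 markers (Mpped1, Fibcd1) were lower. Astrocyte markers (Slc1a2, Gfap) split into 3 higher and 2 lower of 8 on day 3 and were 4 higher on day 7, and 0 and 2 of 7 oligodendrocyte markers (Mbp, Mobp) were higher. Of infiltrating leukocyte markers (Ly6c2, Ccr2), 4 of 9 could be tested and 1 was higher on each day, choroid plexus markers (Kl, Prlr) were 2 higher and 1 lower of 5 tested on day 3 and 1 lower on day 7, and none of the 6 mast cell markers (Cpa3, Cma1) had enough counts, with a summed level of at most 1.20 CPM in any library. The granule cell markers of the labelled tissue were present in every library, at summed medians of 662, 658 and 819 CPM in EZ kainate and 1071, 1070 and 1249 CPM in EZ saline mice. Their part in the members' values was not tested.

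The genes closest to each member in level over the 48 libraries were picked by Pearson's r of log2 CPM, and as before these are descriptions. For Hpgds they were Cx3cr1 (0.990), Laptm5 and Nckap1l (both 0.989), and for Ptgs1 Cttnbp2nl (0.985), Rrbp1 (0.981) and Lamp2 (0.980). Ptger4 was closest to Galr3 (0.947), Sdc3 (0.945) and Cacna1s (0.939), and Ptges to Lcp1 (0.920), Gpnmb (0.918) and Plcb3 (0.916). For Ptgs2 the values were lower, with Fndc9 (0.792), Bzw1 (0.778) and Lingo1 (0.777), and after subtraction of group means with Abce1 (0.818), Cct7 (0.770) and Noct (0.769). Ptgds, after the same subtraction, was closest to Slc13a4 (0.845), Prg4 (0.818) and Slc22a6 (0.807). Between members, the highest r was that of Ptgs1 with Hpgds (0.968), and Ptgs1 with Ptgs2 gave 0.411 and, within groups, -0.228.

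The rest of the pathway was followed with gene lists, to be read against the shares of all genes. These were 16.1% higher and 8.61% lower in the EZ on day 3, 20.6% and 11.9% on day 7, 2.32% and 0.0374% on day 14, and 7.12% and 1.57% in the PIZ on day 3. Upstream, of 20 genes that release arachidonic acid 16 were tested, with 4 called higher and 2 lower in the EZ on day 3, 5 and 3 on day 7, 1 higher on day 14, and 4 higher in the PIZ on day 3. Pla2g4a, the cytosolic phospholipase A2 that feeds the cyclooxygenases, went from 3.91 ± 0.655 CPM in saline to 16.9 ± 5.77 CPM in kainate mice of the EZ on day 3 (SD, n = 4, log2 fold change 2.11, edgeR adjusted p = 3.8e-06), and was also called on day 7 (2.22) and in the PIZ on day 3 (1.21). Pla2g5, a secreted phospholipase A2, was called in the EZ on all 3 days (1.70, 2.98 and 2.10) and in the PIZ on day 3 (2.27), at means under 3 CPM. It was at the filter's level in 12 EZ kainate, 9 PIZ kainate and 3 saline libraries. On saline libraries alone it failed the filter, so these calls are not support for a change. Its day 14 level was 2.49 CPM in mouse 27 and 0.454 to 0.710 CPM in the other kainate mice, beside at most 0.443 CPM in saline mice, and the call was lost without mouse 27 (1.20). Pla2g15, the lysosomal enzyme, was called on days 3 and 7 in the EZ (0.96 and 1.78).

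Of 7 other prostanoid synthases, Tbxas1, the thromboxane A2 synthase, rose in the EZ on days 3, 7 and 14 (log2 fold changes of 1.86, 3.67 and 1.93) and in the PIZ on day 3 (1.85). Its mean EZ level on day 7 was 43.9 ± 28.5 CPM against 3.46 ± 0.358 CPM (SD, n = 4). On day 14 mouse 27 had 37.6 CPM, the other kainate mice 4.23 to 6.31 CPM and the saline mice 3.08 to 3.90 CPM, and without mouse 27 the log2 fold change was 0.57 (edgeR adjusted p = 1). Akr1b3, an aldose reductase with prostaglandin F synthase activity, rose slightly in the EZ (0.65 on day 3 and 0.92 on day 7), and no other synthase of that list was called. Of 5 other prostanoid receptors 4 were tested and only Ptgir, for the prostacyclin receptor, was called, on days 3 and 7 in the EZ, at 4 to 24 and 3 to 17 counts in kainate against 1 to 5 and 1 to 3 in saline libraries. Ptgir passed the filter through 4 EZ kainate libraries and no other, so these calls are not support for a change. Ptgdr passed through 4 EZ kainate, 2 PIZ kainate and 2 saline libraries.

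For breakdown and transport (7 of 7 genes tested), Hpgd, the dehydrogenase that inactivates prostaglandins, was called in the EZ on days 7 and 14 (2.89 and 2.03) and in the PIZ on day 3 (1.74). On EZ day 7 it averaged 47.7 ± 23.6 CPM in kainate and 6.43 ± 1.02 CPM in saline mice. On day 14 it stood at 68.1 CPM in mouse 27, 6.35 to 8.37 CPM in the other kainate mice and 5.12 to 6.29 CPM in saline mice, and without mouse 27 the log2 fold change was 0.43 (edgeR adjusted p = 1). Ptgr1, a prostaglandin reductase, was called in the EZ on days 3 and 7 (1.05 and 0.84). In the leukotriene and lipoxygenase branch, 11 of 13 genes were tested, and 5 were higher and 2 lower in the EZ on day 3, 4 and 2 on day 7, and 4 higher in the PIZ on day 3. Alox5, the 5-lipoxygenase, and Ltc4s, the leukotriene C4 synthase, rose on EZ day 7 by 2.99 and 3.15 on the log2 scale, while Alox12b, an epidermal-type lipoxygenase, was called lower on both days, with 44 to 90 and 25 to 114 counts in saline and 0 to 19 and 0 to 8 counts in kainate libraries. On day 3 all kainate libraries but that of mouse 44 were at 0 counts, so the size of the fitted change rests on this mouse (-3.98 with it and -9.06 without it) and is not a measured fold. In the PIZ on days 7 and 14, no gene of these 5 lists was called by edgeR.

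The medians of the 5 lists in the EZ on days 3 and 7 were 0.32 and 0.07 for arachidonate release, 0.09 and -0.02 for other synthases, 1.14 and 0.64 for other receptors, 0.27 and 0.50 for breakdown and transport, and 1.01 and 0.82 for the leukotriene branch, where all genes had 0.03 and 0.01. Some of these genes had too few saline libraries at the level of the filter to pass it on them, namely Pla2g4c, Pla2g5, Ptgdr, Ptgir and Ltb4r2, and a higher value in kainate mice was favoured for them. Without them the medians were 0.29 and -0.13 for arachidonate release (2 and 4 genes higher of 14), 0.55 and 0.42 for the 2 remaining receptors (none called), and 0.70 and 0.57 for the leukotriene branch (4 and 4 higher of 10).

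Leaving out single mice, a step added after the values were seen, ended some of these calls. The 3 EZ calls of day 14 were also lost without saline mouse 24, 28, 39 or 31, at log2 fold changes of 1.93 to 2.54 for Pla2g5, 1.87 to 1.98 for Tbxas1 and 1.99 to 2.10 for Hpgd. In the PIZ on day 3, Pla2g4a was lost without any mouse but 38 (1.18 to 1.22), Tbxas1 without 30, 37, 44, 18 or 41 (1.75 to 1.83) and Hpgd without 30, 37 or 41 (1.57 to 1.74). In the EZ on day 3, the calls of Pla2g15 (0.78), Akr1b3 (0.56), Ptgr1 (0.83) and Ptgir (1.63) were lost without mouse 38, and that of Ptgir also without 29, 37, 42 or 41 (1.92 to 2.10), while it was 2.83 without saline mouse 18. Alox5 lost its call there without saline mouse 37 (1.62), and Ltc4s lost it without any mouse but 30 (1.15 to 1.31). In the EZ on day 7, Ptgir was lost without 21, 35, 20 or 34 (1.90 to 2.08) and Ptgr1 without 23, 33, 21 or 20 (0.68 to 0.87).

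**Figure D5:**
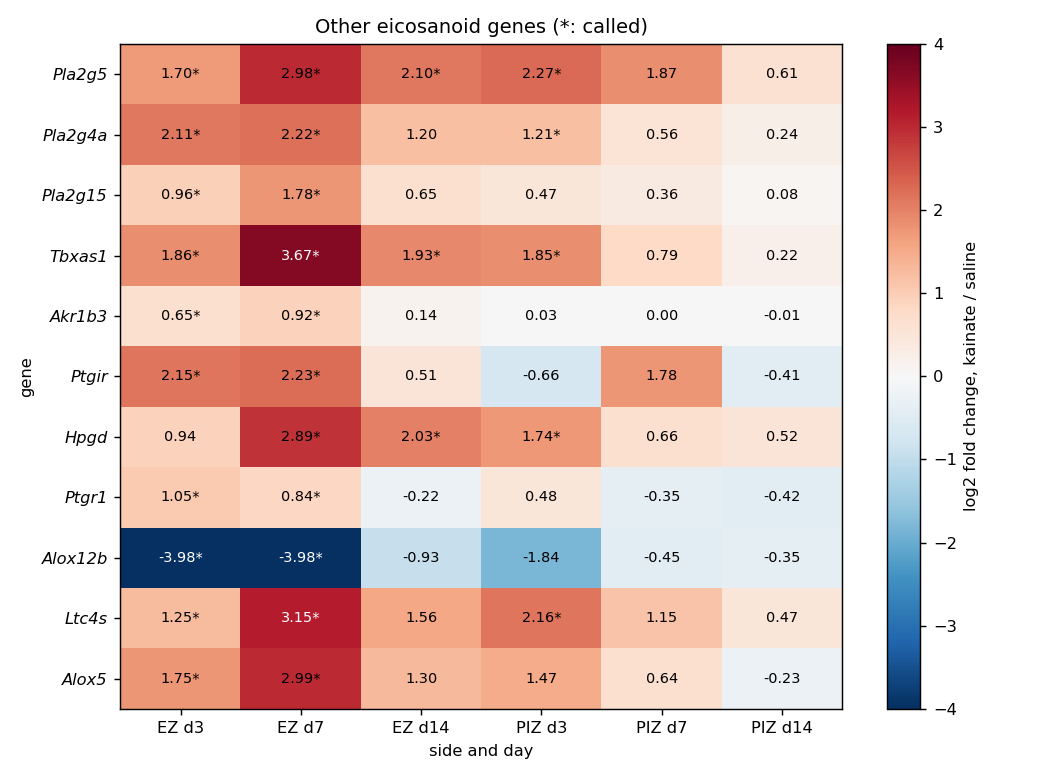
Log2 fold change of kainate over saline for 11 named genes of arachidonate release, other prostanoid synthesis, reception, breakdown and the leukotriene branch, by side and day. Red is higher and blue lower in kainate mice, and an asterisk marks a call. Tbxas1 and Pla2g5 are called in the EZ on all 3 days, the day 14 calls being lost without mouse 27, and Alox12b is the only one of the 11 called lower. Pla2g5 and Ptgir failed the filter on low counts in saline libraries alone.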

How the data were processed

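The authors trimmed paired-end reads with fastp 0.20.1, aligned them to GRCm39 with HISAT2 2.2.1 and counted them per gene by strand with featureCounts (Subread 1.6.4, Gencode M28), with multi-mapping reads kept at their primary alignment, and deposited raw counts. TruSeq Stranded mRNA libraries were made from RNA extracted in 1 run. Columns were matched to samples by title; no 2 libraries were identical.

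Counts were tested with edgeR 4.0.16 (R 4.3.3), with TMM scaling and filterByExpr, in 1 quasi-likelihood model of 12 group means with 36 residual degrees of freedom; other fits used DESeq2 1.42.0 and limma 3.58.1. Standard errors were taken as the log2 fold change over the root of F. Libraries of 1 mouse were related: the correlation of their deviations from group means was -0.05 to 0.38 (median 0.21, over 0.1 in 20 of 24 mice), and limma's block correlation was 0.163. The labels name the mouse, which pairs them. CPM values are TMM-scaled, and log values carry a prior count of 2. Of the gene ids, 98.9% matched the Gencode M39 annotation used for positions and lengths. Akr1b3 is listed there as Akr1b1.

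The members and gene lists were chosen with earlier results of these data known. Named genes were the 9 members, from each other pathway list up to 3 called genes with the greatest absolute change, the 3 genes most correlated with each member (overall and within groups), and the 2 most abundant markers of each cell type list. Alternatives were DESeq2, limma-voom with quality weights, the compared groups alone, RLE or library size scaling, no filter on low counts or a minimum of 10 in each library, a call at adjusted p under 0.05 alone, glmTreat at a fold change of 1.5, each mouse left out, and mouse as a fixed or random replicate block. Leaving out mice for the other pathway genes was added after seeing the data. Some items are not reported here and entered no marker count or sum.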

Additional observations from a re-analysis of the deposited data

Results flagged for a closer look

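In 7 of 108 groups of 4 mice (9 genes in 12 groups), 1 mouse stood apart by a ratio taken on log2 levels. The ratio is that of its gap from the nearest other mouse to the range of the group, and chance alone flags about 1 in 20. Mouse 27 did so 3 times in the kainate EZ of day 14: its level was high for Ptgs1 (48.6 CPM, the others 12.3 to 13.8, ratio 0.919) and Hpgds (61.3 CPM, the others 12.1 to 15.3, ratio 0.855) and low for Ptgs2 (26.4 CPM, the others 37.1 to 37.8, ratio 0.944). Ptger4 of this mouse (21.9 CPM, the others 0.706 to 1.75) was not flagged on the log2 scale, although its day 14 call rested on this library. The same library had a microglial marker sum of 1402 CPM and the other 3 had 323 to 393 CPM, and the part of that sum in these values was not tested. In the kainate EZ of day 7, mouse 21 was low for Ptgs2 (26.4 CPM, the others 75.7 to 88.6, ratio 0.870), beside the highest marker sum of all libraries. At low counts, Ptger1 was low in mouse 23 of the kainate PIZ of day 7 (0.561 CPM, 12 counts, ratio 0.857), Ptger2 was high in saline mouse 29 of the EZ of day 3 (0.495 CPM, 11 counts, ratio 0.888), and Ptger4 was high in mouse 14 of the kainate PIZ of day 14 (1.36 CPM, 30 counts, ratio 0.901).

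The kainate effect differed between the sides on day 7, tested as an interaction in edgeR, for Ptgs1 by 1.94, for Hpgds by 2.10 and for Ptger4 by 3.75 on the log2 scale, each higher in the EZ. Each of these calls was lost without certain single mice and with glmTreat at a fold change of 1.5.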

How the results depend on the processing

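No called member changed sign under any alternative. Uncalled values on EZ day 14 did so, with a shift above the standard error, for Ptges (-0.03) and Ptger1 (-0.40) in limma-voom with quality weights, for Ptges without kainate mouse 27 (-0.05) and for Ptgds without saline mouse 28 (0.04). With 1 mouse left out, 31 uncalled member values over all comparisons took both signs, among them Ptgs2 on PIZ day 3 (-0.22 to 0.16) and Ptgds for EZ minus PIZ on day 3 (-0.27 to 0.65). In all, 337 counts of called members, over all comparisons and settings, stayed within 1.5 times the value reported, 26 rose and 17 fell. Those that stayed include counts of 0, such as those of the saline comparisons, which say nothing about how firm the calls are. The glmTreat test called 3 members on EZ day 3 (Ptgs2, Ptger2 and Ptger4, but not Ptgs1, Ptges or Hpgds) and 0 on EZ day 14, PIZ day 3 and for EZ minus PIZ on day 7. At an adjusted p under 0.05 with no fold minimum, 3 members were called higher on EZ day 14 and 3 on PIZ day 3, and lower were 1 on EZ day 3, 1 on EZ day 7, 1 on PIZ day 3, 2 for EZ minus PIZ on day 7 and 2 for EZ day 14 minus day 7. For EZ day 14 the count was 2 with RLE, with no filter and with DESeq2, and 0 with only the compared groups, with limma-voom with quality weights and with mouse as a random replicate block. For PIZ day 3 it was 2 with library size only, with at least 10 counts in every library (6 members tested) and with DESeq2, 3 with only the compared groups and 4 with limma-voom with quality weights. That fit also called 1 member on PIZ day 7, 1 for EZ minus PIZ on day 3, 3 higher for EZ day 7 minus day 3 and 5 lower for EZ day 14 minus day 7. The cause of these changes was not tested.

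With each mouse left out, the count was 5 to 6 for EZ day 3, 4 to 5 for EZ day 7, 0 to 3 for EZ day 14, 1 to 2 for PIZ day 3, 0 to 1 for EZ minus PIZ on day 3, 0 to 4 on day 7 and 0 to 4 lower for EZ day 14 minus day 7. With mouse as a fixed replicate block, which only the differences between sides allow, Ptges joined those of day 7 (1.03) and no other call changed. With mouse as a random replicate block, Ptger4 on EZ day 14 (1.57) was the one call lost. Receptor genes other than Ptger4 had at most 67 counts in any library, which limits what could be detected for them.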
